A study of Homo sapiens with 16 samples.

Results

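The laminin chains and the integrin subunits, the receptors through which cells hold laminin and other matrix proteins, were examined across all groups. Members were chosen by symbol alone: every row of the deposited count table named as a laminin alpha, beta or gamma chain (LAMA, LAMB or LAMC with a chain number) or as an integrin alpha or beta subunit (ITGA or ITGB with a number or letter). This gave 37 of 27037 genes, of which 12 were laminin chains and 25 were integrin subunits (17 alpha and 8 beta).

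RNA sequencing had been performed on SK-N-BE(2)C, a human neuroblastoma line of the adrenergic type that carries MYCN amplification, after 5 days with the vehicle DMSO, with 10 µM retinoic acid (RA), a differentiating retinoid, with 1 µM palbociclib (PB), which blocks CDK4 and CDK6 and with them entry into the cell cycle, or with both agents (PB+RA). Each of the 4 groups had 4 replicates, which the study's methods describe as passages of the line, so all values come from a single tumour-derived line grown without other cells. Total counts were 19.5 to 31.6 M per sample, and a gene with 0 counts could lie at up to 0.0949 to 0.154 CPM (a gene's counts scaled to a total of 1e6 per sample), for counting error only.

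Laminins are trimers of an alpha, a beta and a gamma chain that assemble outside the cell into the basement membrane, and laminin is a classical substrate for the growth of neurites. The alpha chain carries the main sites to which cells attach. Integrins are pairs of an alpha and a beta subunit: ITGA3, ITGA6 and ITGA7 with ITGB1, and ITGA6 with ITGB4, bind laminin, ITGA1, ITGA2, ITGA10 and ITGA11 with ITGB1 bind collagens, and the subunits that pair with or resemble ITGAV bind proteins with an RGD motif such as fibronectin and vitronectin.

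Of the 37 members, 27 passed the filter on low counts and were tested, 9 laminin chains and 18 integrin subunits, and 17 of these averaged 5 CPM or more in the 16 samples. The 10 members that were not tested never exceeded 14 counts in a sample. Among them, the highest counts were 14 for ITGB6, 11 for ITGA10, 8 for LAMB4, 7 for ITGB7, 6 for ITGB2, 4 for ITGAL and ITGAX, 3 for ITGAM and 1 for LAMA1. The leukocyte beta subunit ITGB2 and its partners ITGAL, ITGAM and ITGAX were thus at or near 0 in every group, as was LAMA1, the alpha chain of the laminin first isolated. Per kilobase of exon, LAMC1 stood highest with a mean of 48.2 CPM per kb over all samples, followed by ITGB1 at 34.7, ITGA1 at 34.6, ITGB5 at 26.1, LAMB2 at 21.0, ITGA6 at 19.8, LAMB1 at 18, LAMA5 at 9.45 and ITGA9 at 8.21 CPM per kb. The length joins all exons of a gene's transcripts, 18592 bases for LAMB1 and 6865 for LAMB2, so this order depends on it. In CPM alone, LAMB1 stood above LAMB2 (means of 335 and 144).

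A gene is called here when edgeR's quasi-likelihood test gave an adjusted p (Benjamini-Hochberg) under 0.05 across the 15415 genes tested and the log2 fold change exceeded 0.5 in size. Of the 27 tested members, 10 were called in PB against DMSO (4 higher and 6 lower), beside 28.2% of all tested genes (16.9% higher and 11.3% lower). RA against DMSO gave 10 calls (9 higher and 1 lower), beside 13.3% of all genes (10.8% higher and 2.54% lower). PB+RA against DMSO gave 15 calls (9 higher and 6 lower), beside 41.9% (24.0% higher and 17.9% lower). The called share of the tested members was 37%, 37% and 55.6%. Of genes that averaged 5 CPM or more, the counts were 7, 7 and 10 of 17 members, beside 25.9%, 10.6% and 38.5% of all genes of that level. These 3 comparisons share the DMSO samples.

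With PB, the laminin chains that were called were higher and the integrin subunits that were called were mostly lower. Of the 9 tested laminin chains, 3 rose and 0 fell with PB, 1 rose and 0 fell with RA, and 3 rose and 0 fell with PB+RA. Of the 18 tested integrin subunits, 1 rose and 6 fell with PB, 8 rose and 1 fell with RA, and 6 rose and 6 fell with PB+RA. The median log2 fold change of the laminin chains was 0.25 with PB, 0.28 with RA and 0.44 with PB+RA, and that of the integrin subunits was -0.12, 0.44 and 0.11, while the median of all tested genes was 0.03, 0.01 and 0.04. No test of the difference between the families was made. In bulk RNA, fewer cells of a kind and less RNA per cell cannot be told apart.

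**Figure D1:**
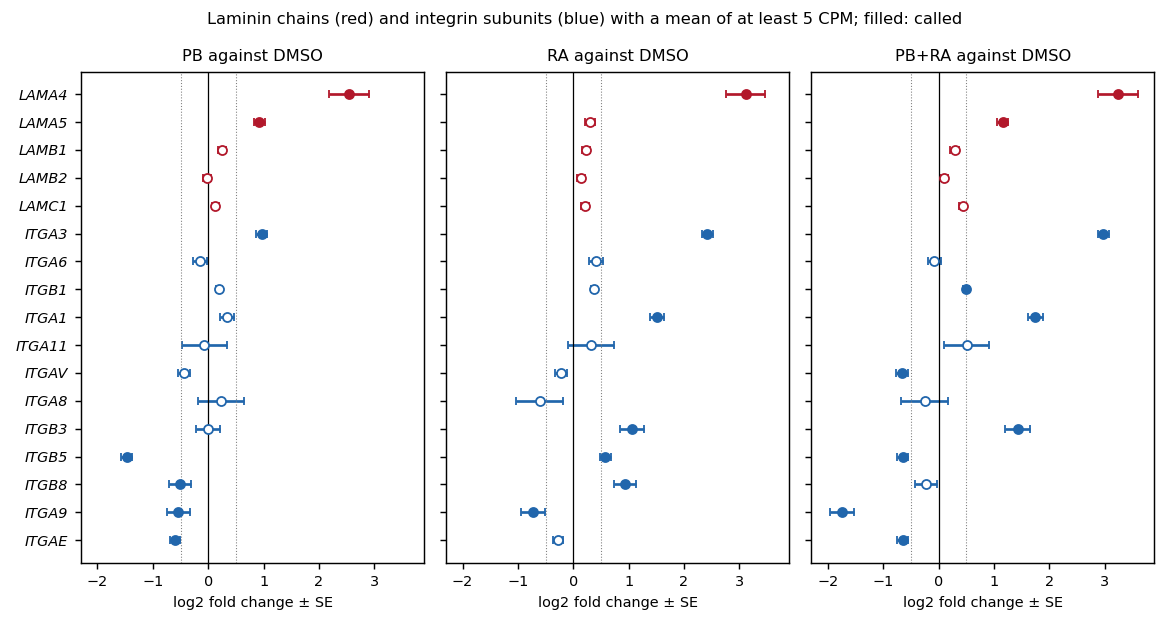
Log2 fold change against DMSO (x axis) of the 17 laminin chains (red) and integrin subunits (blue) that averaged 5 CPM or more, with SE as bars, filled points for called genes and dotted lines at a log2 of 0.5 in either direction. LAMA4 reached 2.54, 3.11 and 3.24 with PB, RA and PB+RA, ITGB5 stood at -1.47 with PB and 0.58 with RA, and LAMB1, LAMB2 and LAMC1 lay within 0.44 of 0 in all 3 panels.

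LAMA4 and LAMA5 were the laminin alpha chains averaging 5 CPM or more that were called higher. ITGA1 was the integrin alpha subunit with the highest level per kilobase in the means of the treated groups. The regions before the start sites of these genes are shown. Each is the 250 bases before the start in RefSeq on GRCh38.p14, read along the gene's strand: chr6:112254568-112254817 (minus strand) for LAMA4, chr20:62367313-62367562 (minus strand) for LAMA5 and chr5:52787666-52787915 (plus strand) for ITGA1. Capitals mark the GC box GGGCGG, the core of the sites that Sp1 recognises, on either strand.
LAMA4: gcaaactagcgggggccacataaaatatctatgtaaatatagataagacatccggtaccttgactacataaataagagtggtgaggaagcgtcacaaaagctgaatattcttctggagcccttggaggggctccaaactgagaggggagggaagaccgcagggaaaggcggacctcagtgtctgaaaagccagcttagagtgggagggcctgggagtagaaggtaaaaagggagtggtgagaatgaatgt
LAMA5: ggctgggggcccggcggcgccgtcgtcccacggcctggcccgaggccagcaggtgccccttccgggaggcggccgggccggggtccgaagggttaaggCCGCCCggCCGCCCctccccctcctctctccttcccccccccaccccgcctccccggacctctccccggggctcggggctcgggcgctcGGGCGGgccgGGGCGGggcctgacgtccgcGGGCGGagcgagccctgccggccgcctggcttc
ITGA1: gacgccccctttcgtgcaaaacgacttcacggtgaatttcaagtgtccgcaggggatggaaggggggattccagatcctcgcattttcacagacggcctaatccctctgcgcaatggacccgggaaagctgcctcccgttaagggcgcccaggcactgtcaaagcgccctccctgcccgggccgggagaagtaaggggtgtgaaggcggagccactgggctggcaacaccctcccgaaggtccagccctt
The LAMA5 window held 5 GC boxes and 82.8% G and C, whereas the LAMA4 window held 0 boxes and 48.4% G and C and the ITGA1 window 0 boxes and 62.0%. RefSeq entries were found for 26 of the 37 members, and 5 of these members had more than 1 entry. The 250 bases before the start were then searched on both strands. GGGCGG was present for 14 of the 26 members and in 42.6% of all 35116 entries. AGGTCA, the core motif of retinoid receptor sites, was present for ITGAV and LAMA2 and in 12.1% of all entries. TGACTCA, the AP-1 motif, was present for LAMA3 and LAMB3 and in 4.2%. For all 3 motifs the matches are counted by member and the percentages by entry. A member with more than 1 entry has more chances of a match, so these values are not like for like. None of these 3 motifs contains another. A match describes the letters only.

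LAMA4, the alpha chain of laminins found in vessel walls, nerve and fat (chromosome 6, 112429134 to 112576141 on GRCh37), was the member with the largest rise against DMSO in each comparison. LAMA4 stood at 3.55, 3.63, 4.84 and 4.72 CPM in DMSO replicates 1 to 4, and at 23.9, 23.7, 24.0 and 25.7 CPM in PB. In RA, LAMA4 reached 23.0, 21.3, 57.7 and 44.2 CPM, and in PB+RA 27.1, 24.2, 58.9 and 51.7 CPM. Every treated sample lay above every DMSO sample, the PB samples lay close together, and in both groups with RA replicates 3 and 4 stood far above replicates 1 and 2. Against DMSO, LAMA4 differed by a log2 of 2.54 ± 0.36 (SE) in PB (adjusted p = 3.16e-05), 3.11 ± 0.36 in RA (1.88e-05) and 3.24 ± 0.36 in PB+RA (1.53e-06). PB+RA thus rose less than the sum of both agents' log2 changes, and the interaction, the log2 change of PB+RA minus that sum, was -2.41 ± 0.48 (adjusted p = 0.00889). LAMA4 was the only member called for the interaction of the 27 tested, beside 3.44% of all genes (3.02% below additive). With the replicate number entered as a block, 4 members were called. Within replicates 1 and 2 alone the LAMA4 interaction was -2.53 and within replicates 3 and 4 alone it was -2.23, both called.

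The spread between replicates touched the comparisons of LAMA4 among treated groups. PB+RA against PB gave a log2 of 0.70 ± 0.32 (adjusted p = 0.0974), which was not called, but became a call when the replicate number entered as a block (0.60, adjusted p = 0.0293) or when PB+RA replicate 2 was left out (0.88, adjusted p = 0.0424). PB against RA gave -0.58 ± 0.32 (adjusted p = 0.143), and was called without RA replicate 2 (-0.78, adjusted p = 0.0496). Within replicates 1 and 2 these differences were 0.09 and 0.10, and within replicates 3 and 4 they were 1.13 and -1.02. PB+RA and RA differed by 0.13 ± 0.31 (adjusted p = 0.758), with overlapping samples.

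LAMA5, the alpha chain of the laminins most widespread in adult basement membranes (chromosome 20, 60883011 to 60942368 on GRCh37), rose with PB. LAMA5 stood at 89.2, 85.1, 80.7 and 82.5 CPM in DMSO and at 183, 171, 149.8 and 135 CPM in PB. In RA, LAMA5 stood at 95.1, 115, 112 and 94.7 CPM, and in PB+RA at 218, 202, 175 and 174 CPM. Both groups with PB lay above both groups without it in all samples. Against DMSO, LAMA5 differed by a log2 of 0.92 ± 0.098 in PB (adjusted p = 8.49e-07), 1.16 ± 0.098 in PB+RA (2.45e-08) and 0.30 ± 0.097 in RA (0.0259), the last under the fold minimum. PB+RA exceeded RA by 0.86 ± 0.097 (1.47e-06), PB exceeded RA by 0.62 ± 0.097 (5.98e-05), and PB+RA and PB differed by 0.24 ± 0.096 (0.0605). The difference between PB and RA was 0.47 within replicates 3 and 4 alone, under the fold minimum. LAMA5 overlaps exons of ADRM1 on the opposite strand, with a longest shared stretch of 158 bases. ADRM1, a proteasome gene at a mean of 211 CPM, went the other way (log2 of -0.64 with PB and -0.69 with PB+RA). The strand setting of the counts is not given in the sources used here, so the LAMA5 counts are uncertain by an unknown amount.

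The beta and gamma chains that complete the trimers changed little. LAMB1, LAMB2 and LAMC1 were not called in any test, all staying under the fold minimum. The beta chain LAMB1 had group means of 291 ± 24.9 CPM in DMSO (SD, n = 4), 345 ± 13.4 in PB, 342 ± 38.4 in RA and 363 ± 29.0 in PB+RA, with log2 fold changes of 0.25, 0.23 and 0.29 against DMSO (adjusted p of 0.0125, 0.0329 and 0.00319). LAMB2, the beta chain of synaptic and muscle basement membranes, had means of 138 ± 8.37, 135 ± 4.92, 152 ± 12.2 and 151 ± 13.2 CPM in the same order, with log2 fold changes of -0.03, 0.14 and 0.10 (adjusted p of 0.768, 0.127 and 0.187). LAMC1, the common gamma chain, had 351 ± 19.1, 385 ± 33.0, 408 ± 28.1 and 486 ± 29.2 CPM, and its log2 fold change was 0.13, 0.21 and 0.44 (adjusted p of 0.0909, 0.0188 and 1.22e-05). LAMC1 and LAMB1 therefore passed the p threshold but not the fold minimum in PB+RA, and their 4 PB+RA samples lay above the 4 DMSO samples. LAMB1 overlaps exons of DLD on the opposite strand (a mean of 176 CPM), with a longest shared stretch of 300 bases.

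Summed per kilobase, the laminin alpha chains rose from 6.31 ± 0.202 CPM per kb in DMSO to 13.3 ± 1.45 in PB, 10.4 ± 1.71 in RA and 16.9 ± 0.637 in PB+RA (SD, n = 4). Over the same groups the beta chains went from 35.8 to 38.3, 40.8 and 41.8 CPM per kb and the gamma chains from 41.8 to 45.8, 48.5 and 57.9. The alpha chains were thus the least abundant class in every group and the class whose sum differed most in proportion. LAMA5 made up 93.5% ± 1.11 of the alpha sum in DMSO, 84.0% ± 2.29 in PB, 71.0% ± 9.84 in RA and 79.7% ± 8.49 in PB+RA, and LAMA4 made up 5.56% ± 1.07, 15.5% ± 2.25, 28.4% ± 9.77 and 20.0% ± 8.55. The wide SD of both RA groups follows the split of LAMA4 between replicates. LAMC1 held 99.4% to 99.6% of the gamma sum in each group mean. LAMB2 held 51.4% to 56.1% of the beta sum with LAMB1 nearly all of the rest. The larger part of LAMB2 rests on the exon lengths used, since LAMB1 was higher in CPM.

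**Figure D2:**
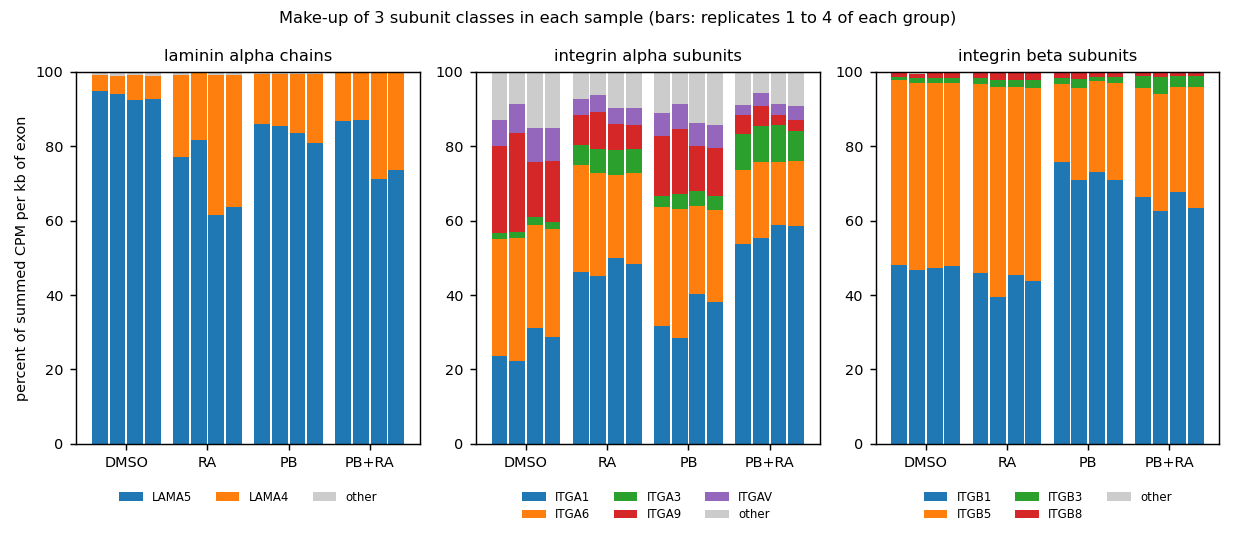
Percent of the summed CPM per kb of exon (y axis) taken by each gene among laminin alpha chains, integrin alpha subunits and integrin beta subunits, 1 bar per sample with replicates 1 to 4 in order within each group. LAMA4 took between 4.50% and 6.61% of the laminin alpha chains in DMSO and 18% to 37.8% in RA, ITGA1 took the largest part of the integrin alpha subunits in every RA and PB+RA sample, and ITGB1 took 70.9% to 75.9% of the beta subunits in PB against 46.8% to 48.2% in DMSO.

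The remaining laminin chains were tested at low levels, with means of 0.504 to 1.77 CPM. LAMA2, the alpha chain of muscle and Schwann cell basement membranes, was called higher with PB (0.485 ± 0.138 CPM in DMSO and 0.924 ± 0.157 in PB, log2 of 0.92, adjusted p = 0.0302) and lower in PB+RA than in PB (-1.03, adjusted p = 0.0288). LAMB3, a chain of the epithelial laminin, was called higher in PB+RA than in DMSO (1.02 ± 0.469 against 0.248 ± 0.172 CPM, log2 of 1.95, adjusted p = 0.00613) and than in PB (1.70, adjusted p = 0.028). LAMA3, its epithelial alpha chain, was called lower in PB+RA than in RA (-0.98, adjusted p = 0.0278). These calls rest on at most 28 counts in a sample. The rise of LAMA2 was lost on leaving out DMSO replicate 1 (0.80) or 4 (0.79), or PB replicate 1 (0.85) or 4 (0.80), and its difference between PB+RA and PB on leaving out PB replicate 1 (-0.96), PB replicate 4 (-0.94), PB+RA replicate 3 (-0.96) or PB+RA replicate 4 (-0.72). The LAMB3 difference between PB+RA and PB was lost when PB replicate 1 (1.39) or 2 (1.61) was left out, or PB+RA replicate 2 (1.58), 3 (1.68) or 4 (1.52). That of LAMA3 was lost on leaving out RA replicate 1 (-0.96), RA replicate 3 (-0.69), PB+RA replicate 2 (-0.96) or PB+RA replicate 3 (-0.80). LAMC3 had means of 1.51, 1.60, 1.56 and 2.43 CPM in DMSO, PB, RA and PB+RA and was not called in the fit without the block, except when PB+RA replicate 3 (0.87 against DMSO and 0.84 against RA) or 4 (0.85 and 0.84) was left out, and within replicates 1 and 2 alone (1.15 against DMSO, 0.87 against PB and 0.80 against RA). Within replicates 3 and 4 alone the difference from DMSO was -0.24. With the replicate block LAMC3 was called in PB+RA against DMSO (0.59, adjusted p = 0.0182), PB (0.54, 0.0467) and RA (0.59, 0.0211). For LAMB3, RA against DMSO (1.52 ± 0.58, adjusted p = 0.0522) was not called, but was called without DMSO replicate 3 (1.97), RA replicate 1 (1.79), PB replicate 1 (1.49) or PB+RA replicate 1 (1.5), and it was called with the block (1.52, adjusted p = 0.00051) as was PB against RA (-1.26, 0.00224).

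Among the laminin receptors, ITGA3 (chromosome 17, 48133332 to 48167845 on GRCh37), whose product pairs with ITGB1 and binds the laminins that contain LAMA5, had the largest rise of the integrins above 5 CPM. ITGA3 stood at 9.4, 10.1, 12.6 and 12.2 CPM in DMSO and at 19.1, 22.1, 24.2 and 21.1 CPM in PB. In RA, ITGA3 stood at 53.0, 57.9, 62.5 and 65.1 CPM, and in PB+RA at 82.7, 89.2, 97.3 and 87.2 CPM. The 4 groups did not overlap at any point, in the order DMSO, PB, RA and PB+RA. Against DMSO, ITGA3 differed by a log2 of 0.97 ± 0.10 in PB (adjusted p = 7.23e-07), 2.42 ± 0.10 in RA (1.39e-10) and 2.98 ± 0.10 in PB+RA (9.08e-13). PB+RA exceeded PB by 2.01 ± 0.098 (1.08e-09) and RA by 0.56 ± 0.093 (8.48e-05). The last of these fell to 0.49 without RA replicate 1 and to 0.50 without PB+RA replicate 3, no longer above the fold minimum. The interaction was -0.41 ± 0.14 (adjusted p = 0.108).

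ITGA6, the other main alpha subunit for laminin, was not called against DMSO in any group. ITGA6 stood at 129, 143, 107 and 122 CPM in DMSO and at 133, 131, 92.9 and 95.8 CPM in PB. In RA, ITGA6 stood at 194, 169, 146 and 164 CPM, and in PB+RA at 116, 129.8, 112 and 129 CPM. The RA samples lay above all others, and the other groups overlapped. Against DMSO, ITGA6 differed by a log2 of -0.15 ± 0.12 in PB (adjusted p = 0.325), 0.41 ± 0.12 in RA (0.0143) and -0.07 ± 0.12 in PB+RA (0.602). It was called lower in PB than in RA (-0.56 ± 0.12, adjusted p = 0.00114), a call that ended within replicates 1 and 2 (-0.46), without RA replicate 1 (-0.50) and without PB replicate 3 (-0.48). PB+RA against RA gave -0.49 ± 0.12 (adjusted p = 0.00285), just under the fold minimum, and was called without DMSO replicate 2, PB replicate 2, PB replicate 4 or RA replicate 2 (-0.51 each), and without RA replicate 3 or PB+RA replicate 2 (-0.54 each).

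ITGB1, the beta subunit shared by the laminin and collagen receptors, rose in small steps. ITGB1 stood at 399, 412, 413 and 431 CPM in DMSO and at 477, 470.5, 465 and 470.3 CPM in PB. In RA, ITGB1 stood at 535, 504, 548 and 565 CPM, and in PB+RA at 537, 596, 616 and 645 CPM. The DMSO, PB and RA samples did not overlap, while PB+RA overlapped RA. Against DMSO, ITGB1 differed by a log2 of 0.19 ± 0.05 in PB (adjusted p = 0.00453), 0.37 ± 0.05 in RA (3.84e-05) and 0.50 ± 0.05 in PB+RA (1.55e-07), of which the last just passed the fold minimum. It fell to or under the minimum in 20 of 26 alternatives, with values of 0.45 to 0.52 over all of them, and among the left-out samples it stayed called without DMSO replicate 4 or PB+RA replicate 1 only. The remaining laminin receptor subunits were scarce. ITGB4, the partner of ITGA6 in epithelia, had means of 1.34 ± 0.484 CPM in DMSO, 0.575 ± 0.0695 in PB, 1.04 ± 0.196 in RA and 0.379 ± 0.0809 in PB+RA, and was called lower with PB (-1.21, adjusted p = 0.00107, but -0.85 and adjusted p = 0.0561 within replicates 3 and 4) and PB+RA (-1.83, adjusted p = 2.31e-05). ITGA7, a muscle laminin receptor, had 2.37, 1.83, 3.31 and 2.99 CPM and was called higher in PB+RA than in PB (0.68, adjusted p = 0.0143, but adjusted p = 0.0764 within replicates 1 and 2) and lower in PB than in RA (-0.84, adjusted p = 0.00207).

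**Figure D3:**
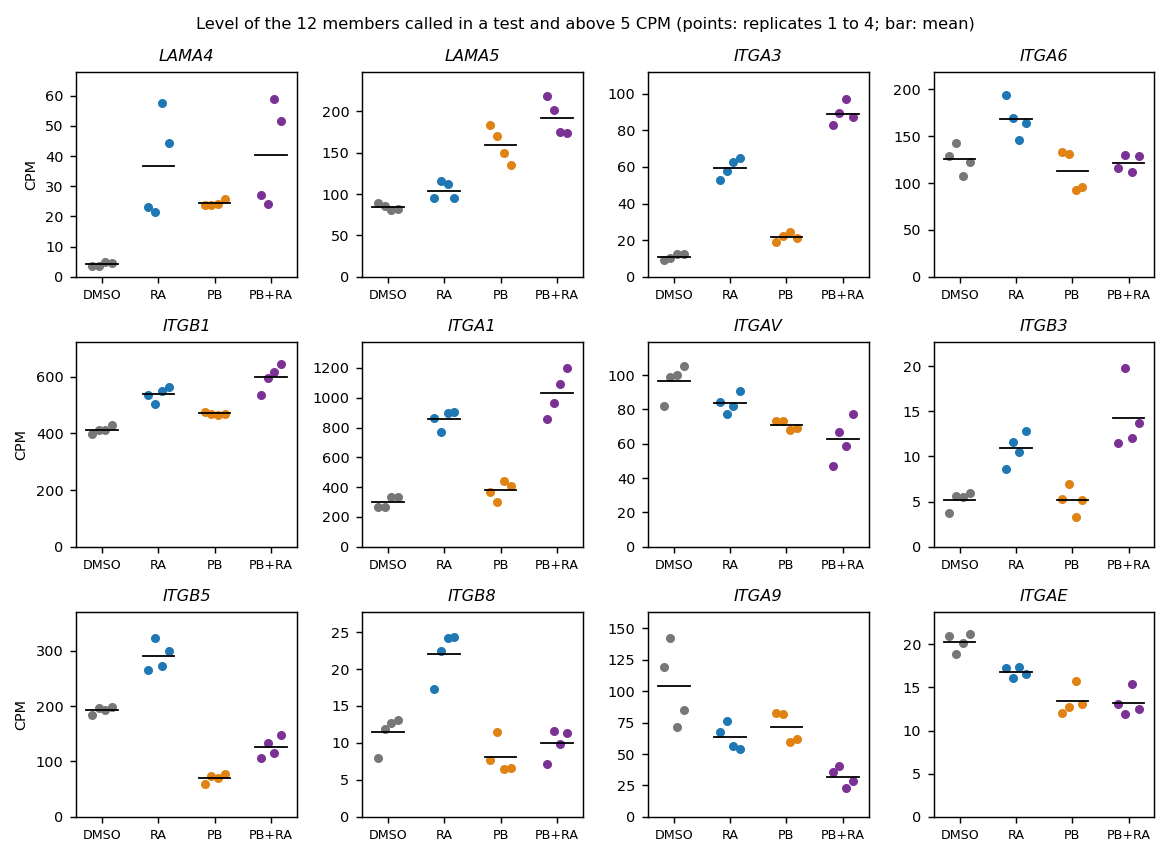
CPM (y axis, linear, from 0) of the 12 members that were called in at least 1 test and averaged 5 CPM or more, with 1 point per replicate in order from 1 to 4 and a bar at the mean of each of the 4 groups. ITGA3 shows 4 separate levels from 9.4 to 97.3 CPM, LAMA5 is higher wherever PB was given, ITGB5 is lower in both groups with PB, and LAMA4 splits widely by replicate in RA and PB+RA.

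ITGA1, which pairs with ITGB1 and binds collagen IV and also laminin (chromosome 5, 52083750 to 52255039 on GRCh37), was the most abundant alpha subunit per kilobase in the means of PB, RA and PB+RA, and rose in both groups with RA. ITGA1 stood at 267, 266, 335 and 333 CPM in DMSO and at 365, 300.0, 443 and 409 CPM in PB. In RA, ITGA1 stood at 867, 768, 896 and 902 CPM, and in PB+RA at 858, 967, 1090.1 and 1203 CPM. All samples with RA lay above all samples without it, and within each of these sets the groups overlapped. Against DMSO, ITGA1 differed by a log2 of 1.51 ± 0.13 in RA (adjusted p = 5.20e-07), 1.75 ± 0.13 in PB+RA (5.99e-09) and 0.34 ± 0.12 in PB (0.0293), the last under the fold minimum. PB+RA exceeded PB by 1.41 ± 0.13 (5.63e-07), and PB+RA and RA differed by 0.24 ± 0.12 (0.108). ITGA1 overlaps exons of PELO on the same strand, with a longest shared stretch of 499 bases. PELO, a gene of ribosome rescue at a mean of 106 CPM, had log2 fold changes of -0.07, 0.12 and 0.06 with PB, RA and PB+RA.

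The other collagen-binding subunits differed from each other. ITGA2 had means of 1.57 ± 0.424 CPM in DMSO, 1.81 ± 0.654 in PB, 4.26 ± 1.84 in RA and 4.04 ± 1.04 in PB+RA, and rose with RA (log2 of 1.42, adjusted p = 0.00208) and PB+RA (1.33, adjusted p = 0.00122). Within replicates 1 and 2 the rise with RA was 0.99 (adjusted p = 0.0581). ITGA11, a subunit of fibroblasts, had 20.3 ± 6.58, 19.3 ± 6.92, 25.5 ± 11.0 and 29.6 ± 14.1 CPM and was not called in any test, with adjusted p of 0.285 or more and widely spread replicates. With the replicate block it was called in PB+RA against PB (0.55, adjusted p = 0.000327).

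RGD-binding subunits that were called were lower with PB and higher with RA. Of the 7 tested, 0 rose and 3 fell with PB, 4 rose and 0 fell with RA, and 2 rose and 3 fell with PB+RA. Over all tested genes, 16.9% were called higher and 11.3% lower with PB, and 10.8% and 2.54% with RA. With PB+RA the shares were 24.0% and 17.9%. ITGB5 (chromosome 3, 124480795 to 124620265 on GRCh37), a partner of ITGAV in the vitronectin receptor, stood at 183, 197, 193 and 199 CPM in DMSO and at 58.5, 73.5, 69.8 and 77.5 CPM in PB. In RA, ITGB5 stood at 266, 323, 273 and 299 CPM, and in PB+RA at 106, 134, 116 and 148 CPM. The 4 groups did not overlap, in the order PB, PB+RA, DMSO and RA. Against DMSO, ITGB5 differed by a log2 of -1.47 ± 0.10 in PB (adjusted p = 9.45e-09), 0.58 ± 0.099 in RA (0.000319) and -0.65 ± 0.099 in PB+RA (2.48e-05). PB against RA gave -2.04 ± 0.10 (1.05e-09), the largest difference of the members above 5 CPM between the single agents. The interaction was 0.24 ± 0.14 (adjusted p = 0.402), so that a departure from the sum of both changes was not detected. The rise with RA was 0.49 within replicates 3 and 4 and 0.43 with a correction for GC content and length together with the replicate block, under the fold minimum.

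ITGB8, the subunit that with ITGAV activates latent TGF-beta, was called higher in RA and not in PB+RA. ITGB8 stood at 8.01, 11.8, 12.7 and 13.2 CPM in DMSO and at 7.64, 11.5, 6.42 and 6.65 CPM in PB. In RA, ITGB8 stood at 17.3, 22.4, 24.3 and 24.3 CPM, and in PB+RA at 7.20, 11.6, 9.86 and 11.3 CPM. The RA samples lay above all others, which overlapped. Against DMSO, ITGB8 differed by a log2 of 0.94 ± 0.20 in RA (adjusted p = 0.00165), -0.22 ± 0.20 in PB+RA (0.341) and -0.51 ± 0.20 in PB (0.0449), and PB+RA against RA gave -1.16 ± 0.20 (0.000123). Within replicates 1 and 2 the rise with RA was 1.00 (adjusted p = 0.0535). The fall with PB was -0.07 within replicates 1 and 2, lost its call under the replicate block (-0.50, adjusted p = 0.00493), and was not called without DMSO replicate 2 (-0.52), 3 (-0.47) or 4 (-0.44) or without PB replicate 1 (-0.50), 3 (-0.44) or 4 (-0.46). The interaction was -0.66 ± 0.28 (adjusted p = 0.222) and was called with the block (-0.67, adjusted p = 0.0233).

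ITGB3, a further partner of ITGAV, rose in both groups with RA from a low level. ITGB3 stood at 3.69, 5.63, 5.50 and 6.0 CPM in DMSO and at 5.28, 6.92, 3.33 and 5.21 CPM in PB. In RA, ITGB3 stood at 8.64, 11.6, 10.5 and 12.8 CPM, and in PB+RA at 11.5, 19.8, 12 and 13.7 CPM. The samples with RA all lay above those without it. Against DMSO, ITGB3 differed by a log2 of 1.06 ± 0.22 in RA (adjusted p = 0.00135), 1.43 ± 0.22 in PB+RA (2.08e-05) and -0.01 ± 0.22 in PB (0.986). PB against RA gave -1.06 ± 0.22 (0.000703), and -0.74 (0.0955) within replicates 1 and 2.

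ITGAV, the alpha subunit that these beta subunits share, fell in PB+RA. ITGAV stood at 82.1, 98.8, 99.8 and 106 CPM in DMSO and at 73.2, 73.5, 68.1 and 69.3 CPM in PB. In RA, ITGAV stood at 84.2, 77.5, 82.0 and 91.0 CPM, and in PB+RA at 47.0, 67.1, 58.7 and 77.2 CPM. All samples of PB and PB+RA lay below those of DMSO. Against DMSO, ITGAV differed by a log2 of -0.66 ± 0.11 in PB+RA (adjusted p = 7.05e-05), -0.44 ± 0.11 in PB (0.00311), under the fold minimum, and -0.22 ± 0.11 in RA (0.142). The PB value passed the minimum without DMSO replicate 1 (-0.54), and PB+RA against RA, -0.44 ± 0.11 (0.00318), passed it without PB+RA replicate 4 (-0.54). Of the rarer RGD-binding subunits, ITGA5, the fibronectin receptor, had means of 0.986 ± 0.228 CPM in DMSO, 1.06 ± 0.159 in PB, 3.07 ± 1.56 in RA and 2.25 ± 0.892 in PB+RA, and rose with RA (1.62, adjusted p = 0.00208, but adjusted p = 0.0544 within replicates 1 and 2) and PB+RA (1.16, adjusted p = 0.00906, but 0.48 within replicates 3 and 4). ITGA2B, the platelet subunit, reached at most 26 counts and was called lower with PB (-1.38, adjusted p = 0.00917) and PB+RA (-1.22, adjusted p = 0.0122, but -0.93 and adjusted p = 0.168 within replicates 1 and 2). ITGA8, whose product binds nephronectin, had means of 16.1 ± 6.48, 18.8 ± 5.92, 10.6 ± 4.89 and 13.8 ± 5.76 CPM and was not called in any test (adjusted p of 0.112 or more), but with the block it was called in RA against DMSO (-0.62, adjusted p = 0.000218) and PB against RA (0.87, adjusted p = 3.04e-06).

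ITGA9, which pairs with ITGB1 and binds tenascin-C and osteopontin (chromosome 3, 37493606 to 37864998 on GRCh37), had the largest fall of the members above 5 CPM. ITGA9 stood at 119, 142, 71.3 and 85.3 CPM in DMSO and at 83.1, 82.1, 59.3 and 62.2 CPM in PB. In RA, ITGA9 stood at 67.2, 76.5, 56.5 and 53.7 CPM, and in PB+RA at 35.3, 40.7, 22.9 and 28.5 CPM. The PB+RA samples lay below all others, the single agents overlapped each other and DMSO, and replicates 1 and 2 lay above replicates 3 and 4 in all 4 groups. Against DMSO, ITGA9 differed by a log2 of -1.74 ± 0.22 in PB+RA (adjusted p = 5.76e-06), -0.73 ± 0.22 in RA (0.0166) and -0.54 ± 0.21 in PB (0.0443). PB+RA lay below PB by a log2 of -1.20 ± 0.22 (0.000688) and below RA by -1.01 ± 0.22 (0.00125), and PB and RA differed by 0.18 ± 0.22 (0.501). The call with PB ended without DMSO replicate 1 (-0.50) or 2 (-0.38), without PB replicate 3 (-0.49) or 4 (-0.51) and within replicates 3 and 4 (-0.40), and that with RA ended without DMSO replicate 2 (-0.55, adjusted p = 0.0603). With the replicate block both were called, and the interaction, -0.47 ± 0.31 (0.479), became -0.52 and was called (0.00214). The antisense gene ITGA9-AS1 overlaps exons of ITGA9, with a longest shared stretch of 397 bases. ITGA9-AS1 had a mean of 1.04 CPM, with log2 fold changes of -0.47, -0.64 and -1.64 with PB, RA and PB+RA.

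ITGA4, the related subunit of the VCAM-1 receptor, showed another pattern at a level of 0.270 ± 0.191 CPM in DMSO, 0.261 ± 0.228 in PB, 1.80 ± 0.679 in RA and 0.453 ± 0.250 in PB+RA. ITGA4 rose with RA (2.69 ± 0.52, adjusted p = 0.000896) and was lower in PB+RA than in RA (-1.98 ± 0.50, adjusted p = 0.00293), with no overlap of samples in either comparison and at most 53 counts in a sample. Within replicates 1 and 2 alone the difference from RA was not called, in PB+RA (-1.62, adjusted p = 0.104) or in PB (-2.29, adjusted p = 0.0513). Its interaction was -1.89 ± 0.86 (adjusted p = 0.248) and was called with the block (-1.86, adjusted p = 0.0453). ITGAE, named for the integrin of intraepithelial lymphocytes, stood at 21.0, 18.9, 20.1 and 21.1 CPM in DMSO, 12.1, 12.7, 15.8 and 13.0 CPM in PB, 17.2, 16.1, 17.3 and 16.6 CPM in RA, and 13.0, 11.9, 15.4 and 12.5 CPM in PB+RA. All treated samples lay below DMSO, and ITGAE was called lower with PB (-0.60 ± 0.094, adjusted p = 5.15e-05) and PB+RA (-0.65 ± 0.094, 1.33e-05) and not with RA (-0.28 ± 0.093, 0.0276). Its partner ITGB7 was not tested. ITGAE overlaps exons of HASPIN, a mitotic kinase gene on the opposite strand, with a longest shared stretch of 427 bases. HASPIN, at a mean of 10.6 CPM, had log2 fold changes of -0.62, -0.41 and -1.28 with PB, RA and PB+RA. The counts of ITGAE are therefore uncertain by an unknown amount.

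Put together by class, the integrin alpha subunits summed to 61.7 ± 2.82 CPM per kb in DMSO, 59.0 ± 2.43 in PB, 97.6 ± 4.35 in RA and 97.8 ± 10.2 in PB+RA, and the beta subunits to 59.8 ± 2.21, 44.5 ± 1.22, 84.8 ± 3.95 and 63.4 ± 6.06 (SD, n = 4). ITGA1 made up 26.4% ± 4.21 of the alpha sum in DMSO, 34.7% ± 5.54 in PB, 47.4% ± 2.06 in RA and 56.6% ± 2.61 in PB+RA. ITGA9 went from 20.4% in DMSO to 14.7%, 7.91% and 4.01% over the same groups, ITGA6 from 30.4% to 28.7%, 25.8% and 18.7%, and ITGA3 from 1.84% to 3.75%, 6.24% and 9.35%. The make-up of the beta subunits followed PB: ITGB1 held 47.5% ± 0.612 in DMSO and 43.6% ± 2.92 in RA, but 72.7% ± 2.35 in PB and 65.0% ± 2.40 in PB+RA, and ITGB5 held 49.6%, 52.5%, 24.0% and 30.4% in that order. These are shares of RNA per kilobase, which depend on the exon lengths used, and were not tested.

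The single agents were set against each other, since PB and RA act on different targets. Of the 27 tested members, 1 was higher in PB than in RA (LAMA5) and 12 were lower, all of them integrin subunits, beside 26.0% of all genes (12.3% higher and 13.8% lower). The 12 were ITGA1, ITGA2, ITGA2B, ITGA3, ITGA4, ITGA5, ITGA6, ITGA7, ITGB3, ITGB4, ITGB5 and ITGB8. Within replicates 1 and 2 alone 1 was higher and 6 were lower, and the call of ITGB4 ended without RA replicate 2 (-0.72). To ask what the other agent adds, PB+RA was compared with each. PB+RA against PB gave 10 calls (8 higher and 2 lower), beside 16.3% of all genes (9.02% higher and 7.27% lower), and the lower ones were ITGA9 and LAMA2 and the higher ones ITGA1, ITGA2, ITGA3, ITGA5, ITGA7, ITGB3, ITGB5 and LAMB3. The call of ITGA5 (1.06, adjusted p = 0.0299) was lost on leaving out PB replicate 3 (1.05), PB replicate 4 (0.97), PB+RA replicate 1 (1.00) or PB+RA replicate 2 (0.80). PB+RA against RA gave 9 calls (2 higher and 7 lower), beside 29.0% of all genes (14.9% higher and 14.1% lower), with LAMA5 and ITGA3 higher and ITGA2B, ITGA4, ITGA9, ITGB4, ITGB5, ITGB8 and LAMA3 lower, and that of ITGA2B (-1.24, adjusted p = 0.0149) ended without RA replicate 3 (-1.08).

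**Figure D4:**
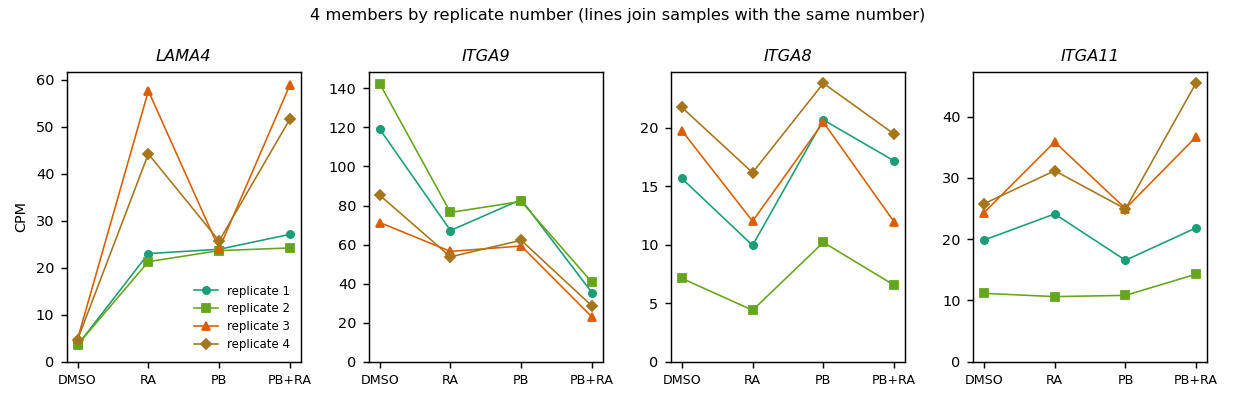
CPM (y axis) of LAMA4, ITGA9, ITGA8 and ITGA11 in the 4 groups (x axis), with lines joining samples of the same replicate number. LAMA4 is higher in replicates 3 and 4 than in 1 and 2 in every group, by far more CPM in RA and PB+RA than in DMSO or PB, ITGA9 is higher in replicates 1 and 2 throughout, and replicate 2 is lowest for ITGA8 and ITGA11 in every group.

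Other genes of the same matrix and adhesion system were followed from lists of basement membrane partners, other laminin receptors, other integrin ligands and integrin adaptors. Of 12 tested basement membrane partners, 1 rose and 3 fell with PB, 1 rose and 0 fell with RA, 3 rose and 2 fell with PB+RA, and 9 were lower in PB than in RA. The matching backgrounds, for these and the next lists, were 16.9% of all genes called higher and 11.3% lower by PB, 10.8% higher and 2.54% lower by RA, 24.0% higher and 17.9% lower by PB+RA, and 13.8% lower in PB than in RA. COL4A2, a chain of the collagen network that laminin adjoins, rose with PB+RA (1.52, adjusted p = 0.00128), as did COL18A1 (0.88, 0.00678) and AGRN, the laminin-binding proteoglycan agrin (0.70, 1.79e-06), while HSPG2, perlecan (-1.08, 1.62e-05), and FBLN1, fibulin-1 (-0.89, 7.81e-06), fell. Of 9 other laminin receptors, PB+RA raised 2 and lowered 4. The proteoglycan SDC3 rose (1.67, 7.48e-11), and SDC1 (-2.31, 1.50e-07), the sarcoglycan SGCE (-1.05, 6.38e-09) and RPSA, a ribosomal protein also named the laminin receptor (-0.72, 3.81e-07), fell.

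Of 11 other integrin ligands, 4 rose and 1 fell with PB, 6 rose and 0 fell with RA, and 6 rose and 1 fell with PB+RA. VTN, vitronectin, which ITGAV with ITGB5 or ITGB3 binds, went from a mean of 2.11 CPM in DMSO to 6.46 in PB and 5.16 in RA, and its log2 fold change with PB+RA was 3.11 (adjusted p = 5.44e-10). THBS1 (2.13, 6.37e-05) and CCN2 (1.90, 2.42e-05), both matricellular proteins, rose, and MFGE8, a ligand of ITGAV with ITGB5, fell (-0.63, 0.00253). Of 33 integrin adaptor and signalling genes, PB+RA raised 8 and lowered 2. The tensin TNS3 (1.53, adjusted p = 0.000508) and the docking protein NEDD9 (1.07, 0.000297) rose, whereas CRKL (-0.78, 3.08e-06) and ITGB1BP1, which binds the tail of ITGB1 (-0.56, 2.65e-06), fell.

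The labelled cell type was checked against its markers. All 7 adrenergic markers, among them HAND2, GATA3, TH and DBH, were present in each group, with summed levels of 2269 to 3682 CPM over the 16 samples. The 8 mesenchymal-type markers in the table summed to 1156 to 1422 CPM in DMSO, 1001 to 1144 in PB, 1909 to 2343 in RA and 1192 to 1617 in PB+RA, led by VIM and FN1. Of these 8 genes, 1 was called higher and 4 lower with PB, beside 16.9% and 11.3% of all genes. With RA, 3 were called higher and 0 lower, beside 10.8% and 2.54%. CD44 went from a mean of 88.9 CPM in DMSO to 149.5 in PB and 83.5 in RA, and FN1 from 175 to 174 and 733. Their part in the results was not tested. Defining genes of other cell types were at or near 0, with at most 1 count of SOX10 for Schwann cells, 6 of PTPRC for leukocytes and 1 of PECAM1 for endothelial cells in any sample.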

How the data were processed

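RNA from 16 samples was sequenced after polyA selection. The deposited values used here are raw read counts per gene, which the authors made by trimming with Trim Galore (0.6.4 per the labels), aligning to hg19 and counting with STAR (2.6.1d per the labels). The strand column and annotation release are not given in the sources used here. Deposited CPM and the authors' table of log2 fold changes and p-values were not used. CPM here are counts scaled to a total of 1e6 per sample.

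Groups and replicate numbers came from the titles. Counts were fitted in R 4.3.3 with edgeR 4.0.16 (filterByExpr, 15415 genes kept, TMM factors 0.983 to 1.02, robust quasi-likelihood, all 16 samples, a coefficient per group). A call needed a p below 0.05 after Benjamini-Hochberg adjustment and an absolute log2 fold change above 0.5. SE is the absolute log2 fold change over the root of F. The 24 pairs of samples with the same replicate number had correlated deviations from their group means (r of 0.331 to 0.573 across genes). The numbers were therefore treated as a possible pairing, which neither the titles nor the paper states. Pairs with different numbers are not reported here. The main fit leaves this pairing out, and the block was an alternative. Other alternatives were DESeq2 1.42.0, limma-voom (limma 3.58.1), filters, fold minimums, a GC and length correction with the block, subsets of replicates and leaving out each sample. Exon lengths, which join all exons of a gene's transcripts, and GRCh37 positions are from GENCODE models.

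Members and lists were chosen with earlier results of these data known. Values in every sample are given for members called in at least 1 test with a mean of at least 5 CPM, and of the other lists at most the 3 largest rises and 3 largest falls with PB+RA are named. Some genes of these lists are not reported here. In simulated data with 200 of 15415 genes changed, 57.0% were called at a log2 of 0.6, 75.0% at 1 and 96.0% at 2 for PB against DMSO. For the interaction, 34.5%, 60.5% and 84.5% were called. The simulated data held no replicate effect shared between groups. They also held far fewer changed genes than the 28.2% called here for PB against DMSO. These rates may therefore differ from those of the actual fit.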

Additional observations from a re-analysis of the deposited data

Results flagged for a closer look

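LAMA4 responded to PB differently with and without RA: the interaction of PB and RA on the log2 scale was -2.41, with an adjusted p of 0.00889 in edgeR's quasi-likelihood test. Of 108 groups of 4 samples examined for a sample that stood apart, over the 27 tested members, 2 had one, where chance alone would mark about 1 in 20. ITGA7 in PB replicate 2 lay at 1.11 CPM, below the other PB samples at 1.97 to 2.14 CPM. LAMC3 in DMSO replicate 3 lay at 1.30 CPM, below the other DMSO samples at 1.55 to 1.60 CPM.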

How the results depend on the processing

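Of 189 pairs of a tested member and a comparison, 68 were called, 39 of them under every alternative run (up to 26), and 0 reversed under any. Leaving out each sample in turn gave 7 to 10 calls for PB against DMSO, 9 to 12 for RA, 14 to 16 for PB+RA, 8 to 10 for PB+RA against PB, 7 to 11 against RA, 12 to 14 for PB against RA and 1 for the interaction. For PB against DMSO, where 10 members were called, a log2 minimum of 1 left 4 and a filter at a mean of 1 CPM left 6, and the same filter took PB+RA against RA from 9 to 5. With no fold minimum, RA against DMSO rose to 16 and PB+RA against RA to 14. Replicates 1 and 2 alone gave 6 for PB+RA against PB and 7 for PB against RA. For the interaction, where 1 member was called, the replicate block gave 4, the GC and length correction with the block 3, and replicates 1 and 2 or 3 and 4 alone 2 each. That correction also moved the split for RA against DMSO from 9 higher and 1 lower to 9 and 3, and for PB+RA against PB from 8 and 2 to 9 and 4. The cause was not tested, beyond fewer genes or samples where a setting removes them.

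With the replicate block 67 of the 68 calls held, ITGB8 in PB against DMSO being the exception, and 12 further pairs were called, each named beside its result, and the block changed no other call. No fit with only the groups compared exists for the interaction. A count of 0 in a sample does not show absence, since an expected count of up to 3 can give it by counting error only. Counts this low are imprecise.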
